A study of Mus musculus with 6 samples.

Results

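The proliferin genes Prl2c2, Prl2c3 and Prl2c5 are near-identical members of the mouse prolactin family, and they were read here from 3 of the 53953 rows that each library lists. They were taken by name, and they had been selected on their measured FPKM in the comparison of arachidonic acid with vehicle in these same libraries. Their levels in that comparison are therefore a description, with no test. RNA was sequenced from organoids of the proximal small intestine of C57BL/6 wt mice, at passage 3 to 5 in Matrigel, which are epithelial cultures grown from crypts. Arachidonic acid is a polyunsaturated fatty acid that cells store in membrane phospholipids and convert to prostaglandins and other eicosanoids. For 3 libraries the organoids had been given arachidonic acid over 3 days, after which they were passaged. For another 3 libraries they received the vehicle, 0.1% ethanol, which the arachidonic acid cultures also received as its solvent. RNA was collected on day 3 after passaging in both groups. The labels read here name no concentration of the fatty acid. No label says that replicate libraries stem from different mice or cultures, so the p-values below measure the spread between libraries, which may be technical.

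Proliferins are secreted glycoproteins of the prolactin and growth hormone family. They were first known as mRNAs that serum and growth factors raise in cultured mouse fibroblasts, and in the mouse the main source is the trophoblast giant cell of the placenta, from which they act on blood vessel growth in the mother. The secreted protein carries mannose 6-phosphate and binds the cation-independent mannose 6-phosphate receptor, which Igf2r encodes. The proliferin promoter is also a textbook case of a composite element, at which AP-1 factors and the glucocorticoid receptor meet.

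How well short reads can be given to one of the 3 genes depends on how much the transcripts differ, so the sequences are shown first. In the GENCODE M21 annotation the transcripts Prl2c3-201 and Prl2c2-201 were 99.5% identical, with 838 of 842 aligned bases the same. The other 4 bases are A18G in the 5′ UTR of exon 1 and C81T, A267C and G386T in the coding part of exons 1, 2 and 4, with the Prl2c3 base first and positions counted from 1 at the 5′ end of Prl2c3-201. The coding sites are printed below with 14 bases on each side, 5′ to 3′, and the capital marks the site itself. They are all the coding differences between these transcripts, whose genes gave nearly all of the signal.

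C81T
Prl2c3: gatgctcccttcttCgattcaaccatgct
Prl2c2: gatgctcccttcttTgattcaaccatgct
Prl2c5: gatgctcccttcttTgattcaaccatgct
A267C
Prl2c3: ttcagaactgttcaAtgaatttgaaaaac
Prl2c2: ttcagaactgttcaCtgaatttgaaaaac
Prl2c5: ttcagaactgttcaCtgagtttgaaaaac
G386T
Prl2c3: ggctcacacactatGcagctcttctgaaa
Prl2c2: ggctcacacactatTcagctcttctgaaa
Prl2c5: ggcacatacgctatGaagctcttctgaaa

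Of these sites C81T and A267C also separate Prl2c5-201 from Prl2c3-201. Prl2c5 differs from Prl2c3 at 30 of 844 aligned bases, an identity of 96.4%, and from Prl2c2 with an identity of 96.6%. The transcripts of the 3 genes were cut into all windows of a given length, and each window was looked for in 6 genes, the 3 proliferins with Prl2c1, Gm7040 and Prl7d1. At 100 bases, 33.6% of Prl2c2 windows, 37.7% of Prl2c3 windows and 91.3% of Prl2c5 windows occurred in no other of the 6. At 150 bases the shares were 49.1%, 50.1% and 100%, and at 50 bases they were 10.5%, 21.4% and 61.4%. Within the aligned part, a fragment of Prl2c2 or Prl2c3 that covers none of the 4 sites carries no base that tells these genes apart, while most Prl2c5 windows of 100 bases do. No label or header read here says how fragments that match several places were counted, so the split between Prl2c2 and Prl2c3 is uncertain and their sum is given throughout.

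The RefSeq promoter table (GRCm38.p6) held 2 of the 3 genes, Prl2c3 and Prl2c5. The 250 bases before the start that the table uses, which may be that of 1 of several transcripts, are shown. The composite element would be sought there, and the windows differ in a match to a loose AP-1 pattern. Prl2c3 lies at chr13:12800080-12800329 on the minus strand and Prl2c5 at chr13:13182466-13182715 on the plus strand. Both run 5′ to 3′ along the gene, and the capitals mark matches to TGANTCA, the AP-1 motif, and to TATATAA.

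Prl2c3: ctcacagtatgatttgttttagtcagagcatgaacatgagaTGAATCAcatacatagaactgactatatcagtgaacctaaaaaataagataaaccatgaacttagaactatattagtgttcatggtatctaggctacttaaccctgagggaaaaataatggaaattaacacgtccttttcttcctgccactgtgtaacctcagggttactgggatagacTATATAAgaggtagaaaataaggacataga
Prl2c5: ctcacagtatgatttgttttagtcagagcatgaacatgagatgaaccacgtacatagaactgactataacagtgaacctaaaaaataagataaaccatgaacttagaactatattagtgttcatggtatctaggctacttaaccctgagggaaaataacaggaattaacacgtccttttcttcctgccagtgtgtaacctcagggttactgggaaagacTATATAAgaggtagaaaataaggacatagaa

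The windows were 96.8% identical, with 241 of 249 aligned bases the same. The Prl2c3 window held TGAATCA, which begins 209 bases before the start. With A as the middle base it matches the loose AP-1 pattern but not the strict consensus. The base change T46C, counted from the first printed base of Prl2c3, falls inside TGAATCA. The Prl2c5 window held no exact match to TGANTCA on either strand. Sites that depart from the motif letters were not looked for, and the position of the composite element was not determined. TGANTCA occurred in 7.81% of all 32851 RefSeq windows of 300 bases, which take in 50 bases after the start. TATATAA, a motif looked for only after the sequences were read, lay 30 and 31 bases before the start of Prl2c3 and Prl2c5 and occurred in 3.24% of all windows. Neither window matched TATAAA, the form of the TATA box that had been chosen beforehand. GGAATG, which TEAD factors bind, AGAACA, a glucocorticoid receptor half-site, and CTTTGAT, which TCF factors bind, were not matched either. The PPAR half-site AGGTCA and the NRF2 core TGACNNNGC were also without a match, on either strand. The 6 motifs, in this order, were found in 13.6%, 14.7%, 19.0%, 3.73%, 16.3% and 12.4% of all windows.

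The values are FPKM, fragments scaled by transcript length and by the depth of the library, and the libraries held 35.6 to 50.8 M fragments. In all, 12913 genes averaged at least 1 FPKM and were tested with limma, and 2690 of them (20.8%) were higher and 2502 (19.4%) lower with arachidonic acid at a Benjamini-Hochberg adjusted p under 0.05. These counts moved with single libraries. Leaving out vehicle replicate 1 gave 1724 higher genes, and leaving out arachidonic acid replicate 3 gave 1712. Leaving out arachidonic acid replicate 1 gave 4192 lower genes, and each of the other 5 libraries, left out, gave 1245 to 1491. Arachidonic acid replicate 1 stood apart from replicates 2 and 3. On a scale from 0 at the vehicle mean to 1 at the mean of replicates 2 and 3, it lay at a median of 0.576 over 3052 called genes that differed by at least 0.5 log2 units. The 11 markers of the intestinal epithelium summed to 2751 to 2756 FPKM in the vehicle and 3600 to 3994 FPKM in the arachidonic acid libraries, although Muc2, a goblet cell mucin, averaged only 1.34 and 0.338 FPKM. Of 10 tested, 2 rose and 4 fell by limma. The keratin genes Krt8 and Krt18 rose from 759 to 1632 and from 272 to 770 FPKM, while Epcam fell from 548 to 361, Cdx2 from 106 to 83.2, Lyz1 from 200.2 to 70.4 and Chga from 73.9 to 15.8 FPKM. Of 12 trophoblast markers, 8 were at 0 in all 6 libraries, Hand1, Tpbpa, Tpbpb and Gcm1 among them, and the list summed to 0.338 to 0.784 FPKM in the vehicle and 0.358 to 0.841 FPKM in the arachidonic acid libraries.

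Proliferin transcripts were almost absent from the vehicle libraries and abundant after arachidonic acid. Prl2c2 (ENSMUSG00000079092) was at 0, 0.204 and 0 FPKM in vehicle replicates 1, 2 and 3 and at 32.5, 94.97 and 80.7 FPKM in arachidonic acid replicates 1, 2 and 3. Every arachidonic acid library was above every vehicle library, and replicate 1 was the lowest of the treated libraries. The means were 0.0682 ± 0.118 and 69.4 ± 32.7 FPKM (SD, n = 3 each), a difference of 5.91 on the log2(FPKM + 1) scale (SE 0.48). The vehicle values rest on 4 fragments in all, the arachidonic acid values on 882, 1807 and 2093. In those treated libraries Prl2c2 was above 81.4%, 93.2% and 92.3% of all rows with a value above 0.

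Prl2c3 (ENSMUSG00000056457) was at 0.0906, 0.231 and 0 FPKM in the vehicle libraries and at 57.4, 79.2 and 71.0 FPKM in the arachidonic acid libraries. The treated libraries lay closer together than for Prl2c2, with the highest 1.38 times the lowest against 2.92 times. The means were 0.107 ± 0.117 and 69.2 ± 11.02 FPKM (SD, n = 3 each), a difference of 5.98 log2 units (SE 0.16). It rests on 7 vehicle fragments and on 1722, 1666 and 2037 arachidonic acid fragments. The mean FPKM of Prl2c2 and Prl2c3 with arachidonic acid did not differ beyond their spread.

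Prl2c5 (ENSMUSG00000055360) was the lowest of the 3, at 0.0366, 0 and 0 FPKM in the vehicle and 0.296, 0.846 and 1.04 FPKM in the arachidonic acid libraries. Its groups did not overlap either, but the whole signal was 1 vehicle fragment and 11, 22 and 37 arachidonic acid fragments. Whether fragments of the far more abundant Prl2c2 and Prl2c3 were counted among them was not tested. The means were 0.0122 ± 0.0211 and 0.728 ± 0.387 FPKM (SD, n = 3 each), a difference of 0.75 log2 units (SE 0.20), which the added 1 compresses at such levels. With a mean of 0.370 FPKM over the 6 libraries it did not reach the minimum for the fit, so 2 of the 3 genes were among those tested. With arachidonic acid the order of the levels was therefore Prl2c2 and Prl2c3 together, then Prl2c5, and in the vehicle libraries all 3 were too low to be ordered.

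The summed proliferin level was 0.127, 0.436 and 0 FPKM in the vehicle libraries and 90.2, 175 and 153 FPKM in the arachidonic acid libraries. The groups were far apart, with 12 fragments in all the vehicle libraries together and 2615, 3495 and 4167 in the treated ones. Vehicle replicate 3 had none, and a count of 0 has an exact 95% upper limit of 3.69 fragments. The sum averaged 0.188 ± 0.224 and 139 ± 44.0 FPKM (SD, n = 3 each), a log2 difference of 6.85 (SE 0.33). Corrected for depth, fragments were 714 times as frequent with arachidonic acid, with an exact 95% interval of 409 to 1382. The same ratio was 997 (389 to 3660) for Prl2c2, 646 (313 to 1608) for Prl2c3 and 58.4 (10.1 to 2338) for Prl2c5. These intervals cover counting error only and are wide because the vehicle counts are so small. By log2 difference Prl2c3 and Prl2c2 ranked 4th and 5th of the 12913 tested genes. Non-overlapping groups with higher values under arachidonic acid were found for 27.6% of tested genes, and nothing is read from the proliferins' place in that share, since this contrast chose them. In bulk RNA, more cells that express a gene and more RNA per cell cannot be told apart.

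**Figure D1:**
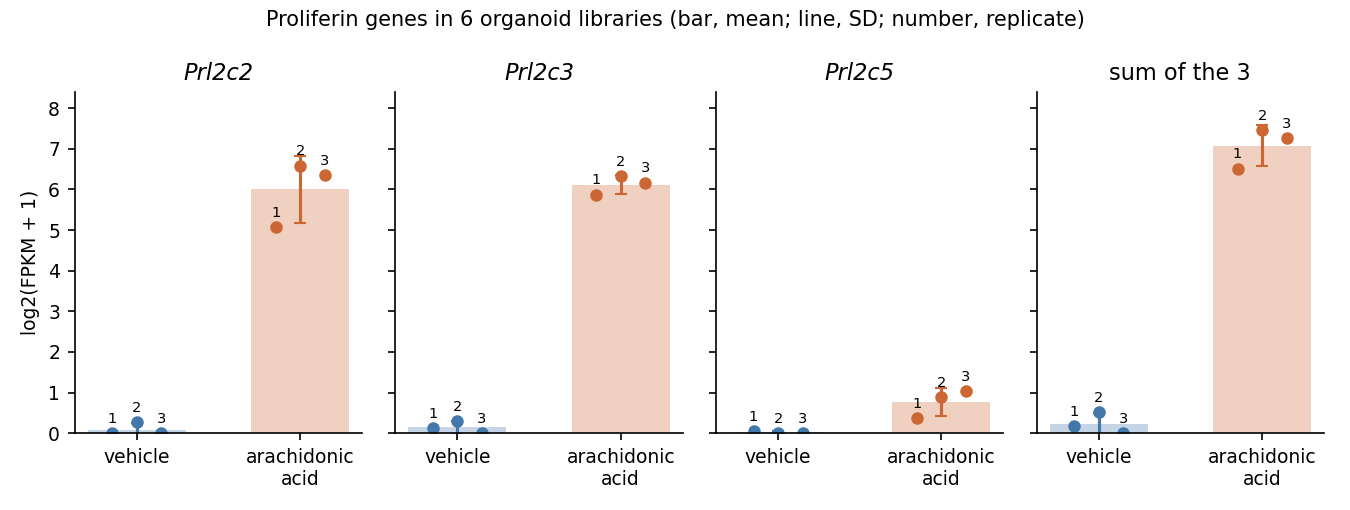
Levels of Prl2c2, Prl2c3, Prl2c5 and their sum in each library, on the log2(FPKM + 1) axis. Points are libraries numbered by replicate, bars are group means and lines are SD (n = 3 each). Every arachidonic acid point lies above every vehicle point, and arachidonic acid replicate 1 is the lowest treated point in all 4 panels.

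Arachidonic acid replicate 1 differed from the other treated libraries by gene. On the scale from the vehicle mean to the mean of replicates 2 and 3 it stood at 0.370 for Prl2c2, 0.764 for Prl2c3, 0.305 for Prl2c5 and 0.550 for the sum. The sum thus lay near the median of 0.505 over the 1671 called genes that rose by at least 0.5 log2 units. Among the 31 genes that rose by at least 4 log2 units, a limit set after the values were seen, the median was 0.365, with a middle range from 0.227 to 0.471. Prl2c2 lay inside that range, and Prl2c3 and the sum lay above it. Prl2c2 and Prl2c3 are themselves among the 31 and the 1671 genes, which the same contrast selected, so these places are a description only. Without arachidonic acid replicate 1 the log2 differences were 6.38 for Prl2c2, 6.11 for Prl2c3, 0.94 for Prl2c5 and 7.13 for the sum.

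The genes divided the proliferin fragments unevenly between libraries. Prl2c2 took 33.7% of the proliferin fragments in arachidonic acid replicate 1 (exact 95% interval 31.9% to 35.6%), 51.7% in replicate 2 (50.03% to 53.4%) and 50.2% in replicate 3 (48.7% to 51.8%). Prl2c3 took 65.9%, 47.7% and 48.9%, and Prl2c5 took 0.421%, 0.629% and 0.888%. As shares of the summed FPKM, Prl2c2 had 36.1%, 54.3% and 52.8% and Prl2c3 had 63.6%, 45.2% and 46.5%. The length inferred behind FPKM is the mean over annotated transcripts, 534.6 bases for Prl2c2 and 591.4 for Prl2c3. The transcripts Prl2c2-201 and Prl2c3-201 are 842 and 857 bases long. There were 0.512 fragments of Prl2c2 for each of Prl2c3 in replicate 1 (0.472 to 0.556), against 1.08 (1.01 to 1.16) in replicate 2 and 1.03 (0.966 to 1.09) in replicate 3. Replicate 1 therefore stood outside the counting intervals of the other libraries, which had nearly equal parts of each gene. The intervals cover counting error only, and the part of the counting of shared fragments in this difference was not tested. The vehicle libraries had 3, 9 and 0 proliferin fragments, too few for a division.

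**Figure D2:**
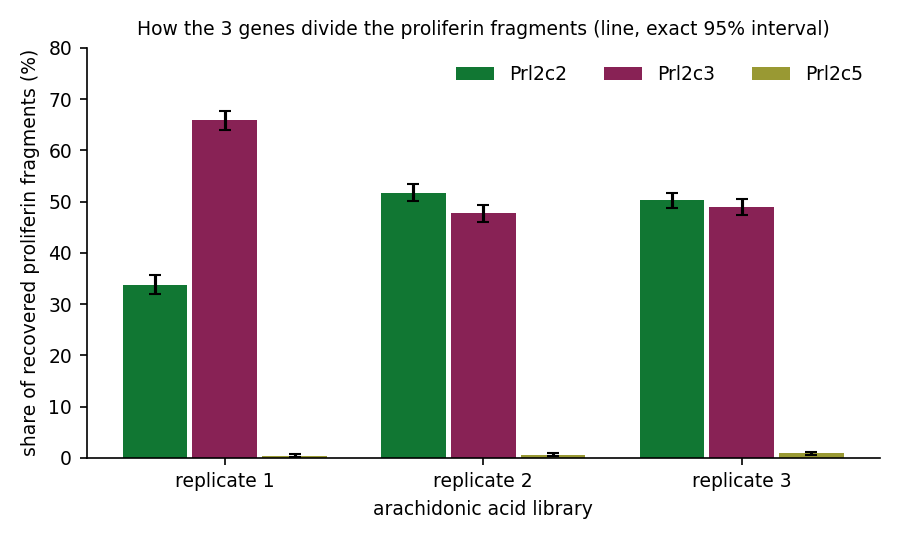
Share of the recovered proliferin fragments that each gene took in the 3 arachidonic acid libraries, in percent. Bars are shares and lines are exact 95% binomial intervals. Prl2c3 leads in replicate 1 with 65.9%, while Prl2c2 and Prl2c3 lie between 47.7% and 51.7% in replicates 2 and 3, and Prl2c5 stays under 1%.

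No other gene of the prolactin family was found at a comparable level. Of 25 listed relatives, 24 were matched, and 19 of these were at 0 in all 6 libraries, Prl2c1 among them, whose transcript is 92.3% identical to that of Prl2c3. The name Prl2c4 was not matched as a row of its own, and RefSeq gives it as a synonym of Prl2c3. The other 5, Prl2a1, Prl3a1, Prl5a1, Prl6a1 and Gh, had at most 0.522 FPKM, and none passed the minimum mean for the fit. Only Prl6a1 had more than 4 fragments, with 40 over the vehicle and 46 over the arachidonic acid libraries. In a limma fit with no minimum, 5 relatives could be tested, and 0 passed an adjusted or an unadjusted p of 0.05. The placental lactogen genes Prl3b1 and Prl3d1, which trophoblast giant cells transcribe beside proliferin, were thus not detected at this depth.

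The receptors to which this family binds moved in different directions. Igf2r, the mannose 6-phosphate receptor that binds proliferin, was at 49.8, 56.0 and 55.5 FPKM in the vehicle and 95.9, 169 and 147 FPKM in the arachidonic acid libraries. Every treated library was higher, and replicate 1 again lay lowest, at 0.405 of the way to replicates 2 and 3. The difference was 1.299 log2 units (SE 0.20, limma adjusted p = 0.0041). Prlr, the prolactin receptor, fell from 66.5 ± 5.96 to 18.8 ± 11.8 FPKM (SD, n = 3 each), a log2 difference of -1.92 (SE 0.36, limma adjusted p = 0.0077). Ghr, the growth hormone receptor, fell by 1.63 log2 units (limma adjusted p = 0.0087). M6pr, the smaller mannose 6-phosphate receptor, was at 80.3 and 87.0 FPKM and did not pass the test (limma adjusted p = 0.18). Over the list of 9 genes for these receptors and for mannose 6-phosphate sorting, 8 were tested. Of these 2 rose and 4 fell, against 20.8% and 19.4% of all tested genes. The other calls were smaller. Sort1, a sorting receptor, rose by 0.35 log2 units (limma adjusted p = 0.0149), and Gnptab and Gnptg, subunits of the enzyme that starts the mannose 6-phosphate tag, fell by 0.38 (limma adjusted p = 0.0113) and 0.35 log2 units (limma adjusted p = 0.032). In the 14 alternative settings the call held in 10 for Sort1 and in 8 for Gnptg. The median of the tested list was -0.12 log2 units, against -0.03 over all tested genes.

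AP-1 factors, the Fos and Jun family proteins that act at the proliferin composite element, were mostly higher beside the proliferins. Of 10 listed genes 7 were tested, with a median of 0.97 log2 units. Of these 5 rose and 0 fell, against 20.8% and 19.4% of all tested genes. The count that fell was also 0 at an unadjusted p under 0.05 and with limma-voom. Fosl1, which encodes FRA1, was at 0.847, 0.609 and 0.669 FPKM in the vehicle and 10.2, 11.6 and 11.3 FPKM in the arachidonic acid libraries, a difference of 2.82 log2 units (SE 0.11, limma adjusted p = 8.7e-05). Fos rose from 3.77 to 16.7 FPKM (1.88 log2 units, limma adjusted p = 0.0012) and Junb from 44.4 to 121 FPKM (1.42 log2 units, limma adjusted p = 0.0027). Replicate 1 lay at 0.534 for Junb and 0.884 for Fosl1, the lowest of the treated libraries for both, as for Prl2c2. It lay at 1.59 for Fos, which was highest where the proliferins were lowest among the treated libraries. Fosl2 and Atf3 rose by 0.69 and 0.97 log2 units, and the call of Atf3 held in 10 of 14 alternative settings. Jun was at 22.9 and 18.0 FPKM and did not pass (limma adjusted p = 0.14). Without arachidonic acid replicate 1 it was lower by limma (-0.58 log2 units, adjusted p = 0.00027).

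The glucocorticoid receptor and its targets, the other arm of that element, did not move one way. Nr3c1, the receptor gene, fell from 45.1 to 22.9 FPKM (-0.98 log2 units, limma adjusted p = 0.0069). Its targets Fkbp5 and Klf9 rose by 1.77 (limma adjusted p = 0.0073) and 1.85 log2 units (limma adjusted p = 0.0081), both with replicate 1 low, at 0.284 and 0.258. The targets Tsc22d3 and Per1 did not pass, at -0.37 (limma adjusted p = 0.14) and 0.07 log2 units (limma adjusted p = 0.73). Hsd11b2, which inactivates glucocorticoids, was lower (-0.62 log2 units, limma adjusted p = 0.0473), a call that held in 4 of the 11 alternative settings that could test it. Of 9 listed genes 6 were tested, with a median of -0.15 log2 units. Of these 2 rose and 2 fell, against 20.8% and 19.4% of all tested genes.

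Proliferin is a classical growth factor response gene, and transcripts that report ERK signalling were given beside it for that reason. Of 13 listed genes 12 were tested, with a median of 0.50 log2 units. Of these 6 rose and 0 fell, against 20.8% and 19.4% of all tested genes. Again 0 fell at an unadjusted p under 0.05 or with limma-voom. Ier3, an early response gene, rose most, from 5.48 to 68.5 FPKM (3.29 log2 units, limma adjusted p = 0.0018), with replicate 1 at 0.322. Phlda1 rose by 2.07 log2 units, and the ERK phosphatase genes Dusp4, Dusp6 and Dusp5 rose by 1.501, 1.38 and 0.77. Etv4 rose by 0.52 log2 units, a call that held in 11 of 14 alternative settings. Proliferin also acts on blood vessels, and a list of 18 other secreted angiogenic factors was read beside it. The list mixes factors that promote vessel growth with inhibitors such as Thbs1, so its counts have no single direction. Of 12 tested, 2 rose and 3 fell, which is near the 20.8% and 19.4% of all tested genes, and the median was -0.14 log2 units. Angptl4 rose by 2.45 log2 units (limma adjusted p = 0.00048), and Pdgfa fell from 312 to 93.5 FPKM (-1.79 log2 units, limma adjusted p = 0.0024). The other gene that rose was the inhibitor Thbs1 (0.77 log2 units, limma adjusted p = 0.030). Its call held in 8 of the 13 alternative settings that could test it. Vegfb and Vegfc were the others that fell, at -0.29 and -1.36 log2 units. Without arachidonic acid replicate 1, 4 rose and 5 fell.

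**Figure D3:**
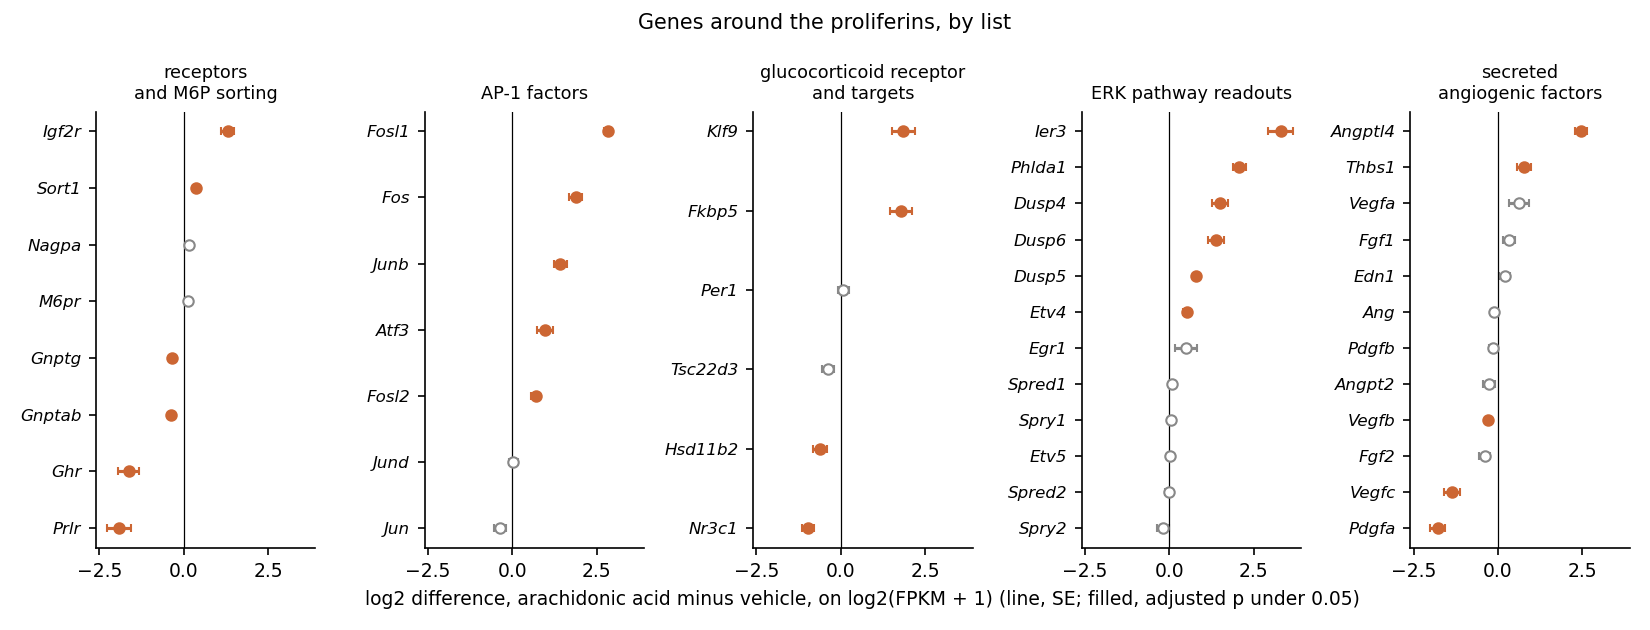
Log2 difference, arachidonic acid minus vehicle on log2(FPKM + 1), of the tested genes of 5 lists around the proliferins. Points are limma estimates, lines are SE and filled points passed an adjusted p of 0.05. Igf2r lies at 1.299 and Prlr at -1.92, and the AP-1 list runs from -0.37 for Jun to 2.82 for Fosl1.

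Markers of other cell types were given for the same libraries. The fibroblast list, a cell type in which proliferin is known, summed to 4.46 to 6.02 FPKM in the vehicle and to 0.484 to 1.84 FPKM in the arachidonic acid libraries, and only Vim exceeded 1 FPKM, falling from 4.77 to 0.817. The endothelial list reached 0.412 FPKM in the vehicle and 0.810 FPKM in the arachidonic acid libraries at most. The immune list summed to 2.30 to 3.19 and 4.93 to 25.3 FPKM. Of its 8 genes only Cd68 exceeded 1 FPKM, at 2.14, 2.02 and 1.53 FPKM in the vehicle and 3.52, 23.9 and 16.8 FPKM in the arachidonic acid libraries. Cd68 was thus lowest in replicate 1 among the treated libraries, as the proliferins were, and its part in their levels was not tested.

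The proliferin genes lie in a row on chromosome 13, in the order Prl2c3, Prl2c2, Prl2c5 in RefSeq, and position played no part in how they were chosen. Of the 5 nearest other protein-coding genes on each side, 7 of 10 were tested. Of these 4 rose and 1 fell, against 20.8% and 19.4% of all tested genes. The closest gene after the proliferins, Gm7040, is itself 98.2% identical to Prl2c3 over 443 bases. It was at 0 in all vehicle libraries and at 0.267, 1.27 and 1.44 FPKM in the arachidonic acid libraries, below the minimum mean. Whether fragments of the proliferins were counted in Gm7040 was not tested. The next genes on that side rose most among the neighbours. Gpr137b, which encodes a lysosomal membrane protein, was at 0.562, 0.430 and 0.313 FPKM in the vehicle and 7.87, 19.7 and 22.1 FPKM in the arachidonic acid libraries (3.50 log2 units, limma adjusted p = 0.0012). Its replicate 1 lay at 0.364, close to Prl2c2. Nid1, which encodes the basement membrane protein nidogen, rose from 0.171 to 6.34 FPKM (2.61 log2 units, limma adjusted p = 0.00092). Lyst, the gene after it, did not pass (limma adjusted p = 0.12), and Gng4 fell by 1.13 log2 units (limma adjusted p = 0.0081). On the other side Heatr1 rose by 0.35 log2 units (limma adjusted p = 0.0066) and Lgals8 by 0.22 (limma adjusted p = 0.04), a call that held in 6 of 14 alternative settings. Ero1lb, the gene next to Prl2c3, was at 3.18 and 2.69 FPKM and did not pass (limma adjusted p = 0.46). Edaradd went from 1.01 to 0.166 FPKM and did not reach the minimum mean. In the limma fit with no minimum it was the second neighbour called lower (-0.81 log2 units, adjusted p = 0.0247), where Gm7040 did not pass (adjusted p = 0.058). Actn2 was at 0.

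**Figure D4:**
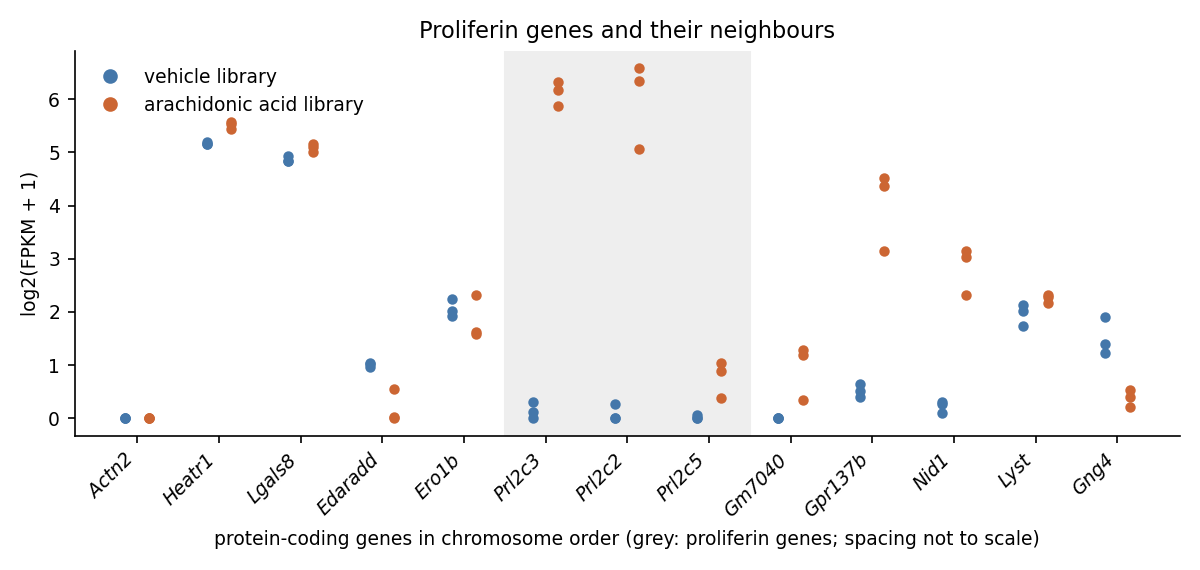
Level of the proliferin genes and their 10 nearest protein-coding neighbours in each library, in chromosome order, on the log2(FPKM + 1) axis. Points are libraries, blue for vehicle and orange for arachidonic acid. Gpr137b and Nid1, after the proliferins, are higher in all 3 treated libraries, while Ero1b (named Ero1lb in the older annotation) before them overlaps between groups.

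The genes with the profile most like the summed proliferins were found by the root mean square difference between log2(FPKM + 1) values over the 6 libraries, each gene set against its own vehicle mean. The 10 nearest were Akr1b8, Msln, Syt8, Aldh3a1, Capg, Ly6a, S100a6, Ly6d, Anxa3 and Sprr2a2, at distances of 0.365, 0.412, 0.817, 0.818, 0.919, 0.921, 0.923, 1.07, 1.10 and 1.26 log2 units. Akr1b8, an aldo-keto reductase, was at 1.65, 0.842 and 1.53 FPKM in the vehicle and 155, 402 and 389 FPKM in the arachidonic acid libraries. Msln, mesothelin, was at 3.61, 2.70 and 1.64 and at 160, 432 and 404 FPKM. Both were lowest in replicate 1 of the treated libraries, at 0.389 and 0.379, below the 0.550 of the proliferin sum. The measure favours genes that change by a like amount, and the choice of measure decides the names. With a pseudocount of 0.1, 6 of the 10 were shared, and by Pearson correlation over the 6 libraries, 0 of 10 were. By that measure Vnn1, Pear1, Pdlim2, Ano3 and Plekhg2 came first. The 10 genes named above also had r of 0.976 to 0.996 with the sum, over points that share the difference between the groups, so nothing is read from these correlations.

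**Figure D5:**
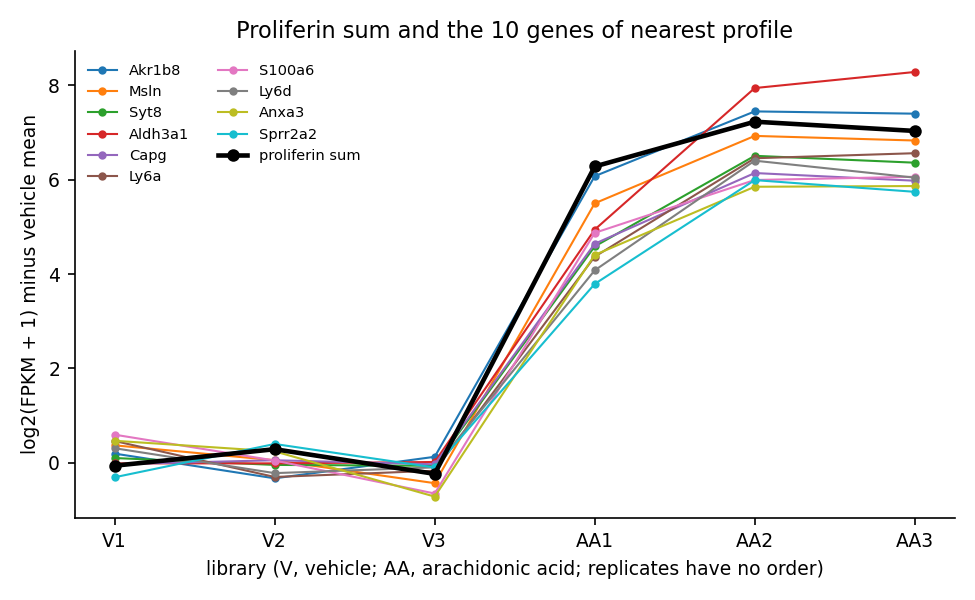
Profile of the summed proliferins (black) and of the 10 nearest genes over the 6 libraries, as log2(FPKM + 1) minus each one's vehicle mean. Lines only join the values of a gene. In arachidonic acid replicate 1 the proliferin sum is above the other 10, and in replicates 2 and 3 it lies among Akr1b8, Aldh3a1 and Msln.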

How the data were processed

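The RNA-seq libraries were 3 from vehicle and 3 from arachidonic acid cultures, grouped by the sample titles. The deposited values are FPKM made by the authors, with the unit inferred from the values because no label names it. Per the submitters' processing notes the tools were featureCounts 1.5.0-p3, HISAT2 2.0.5 and StringTie 1.3.3b, without their roles. The build, the annotation, the strand setting and the treatment of fragments with several matches were not found in any label or header used here. Multiplied by the mean GENCODE M21 transcript length, low FPKM gave whole fragments, since 96.3% to 96.7% of values below 100 fragments came out whole with a tolerance of 0.1. This gave depths of 37.4, 36.6 and 38.5 M fragments for vehicle and 50.8, 35.6 and 48.6 M for arachidonic acid replicates 1 to 3.

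Symbols were found for 53274 identifiers. Genes averaging 1 FPKM or more entered limma 3.58.1 (R 4.3.3) with a variance trend on log2(FPKM + 1), which understates the change of low genes. P-values were two-sided and Benjamini-Hochberg adjusted, and the script was tested on simulated data. Members' SE come from the group SDs, and their intervals are exact (95%). The members, the 6 gene lists and the markers were chosen with earlier results of these data known, and 1 marker is not reported here. The named genes were the members, Igf2r, M6pr, Prlr, Ghr, Nr3c1, Jun, Fos, Junb and Fosl1, relatives above 0 FPKM, up to 6 members of each other list by smallest p, the 10 nearest profiles and the neighbours. Genes that only illustrate another measure were named after their values were seen.

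The alternatives were a pseudocount of 0.1, no minimum, quantile normalization, a minimum mean of 5 FPKM, median-of-ratios scaling, rescaling to TPM, a replicate block and each library left out. Limma-voom on recovered fragments, the fragment and full-length shares, the separate nearest genes and the TATATAA motif were chosen after seeing the data. The scripts used Python 3.11.15, numpy 2.4.6, pandas 2.3.3, scipy 1.17.1, biopython 1.88 and matplotlib 3.10.9.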

Additional observations from a re-analysis of the deposited data

How the results depend on the processing

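The proliferin genes were higher with arachidonic acid under every alternative run. With a pseudocount of 0.1 the log2 differences were 8.76 for Prl2c2, 8.54 for Prl2c3, 2.76 for Prl2c5 and 9.19 for the sum, and after rescaling to TPM that of Prl2c3 was 6.35. With each library left out the difference ranged from 5.62 to 6.38 for Prl2c2, 5.88 to 6.11 for Prl2c3, 0.61 to 0.94 for Prl2c5 and 6.66 to 7.13 for the sum. Against the shares of FPKM, shares of recovered fragments in arachidonic acid replicates 1, 2 and 3 were 33.7%, 51.7% and 50.2% for Prl2c2 and 65.9%, 47.7% and 48.9% for Prl2c3. With the length of the full coding transcript they were 34.1%, 52.1% and 50.7% and 65.5%, 47.2% and 48.4%.

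With each library left out, the counts over all genes ranged from 1712 to 3554 higher and from 1245 to 4192 lower. The range was 1 to 2 higher for the receptor list, 0 to 1 lower for AP-1, 1 to 2 lower for the glucocorticoid list, 0 to 1 lower for ERK, 1 to 4 higher and 2 to 5 lower for the angiogenic list, and 0 to 2 lower for the neighbours. The glucocorticoid list had 1 higher at a minimum of 5 FPKM. It had 1 lower with a pseudocount of 0.1, no minimum, a minimum of 5 FPKM, TPM and the replicate block. The angiogenic list had 1 higher with no minimum and at a minimum of 5 FPKM. The neighbours had 2 lower with no minimum and 0 at 5 FPKM, where fewer genes were tested. Of the nearest genes 6 were shared with a pseudocount of 0.1 and 0 by Pearson correlation. Per1, which did not pass in any fit, ranged from -0.056 to 0.192 log2 units with each library left out, and was below 0 without arachidonic acid replicate 2 (limma adjusted p = 0.80). Among 41 called genes outside the proliferins, 9 lost the call under at least 1 alternative. These were Sort1, Gnptg, Atf3, Hsd11b2, Etv4, Vegfb, Thbs1, Lgals8 and Aldh3a1, and the cause was not tested. The replicate block gave 2263 higher and 1998 lower genes. Deviations of same-numbered libraries correlated at -0.0811, 0.210 and -0.0623 across genes, so the numbers were not taken as pairs. The vehicle counts of 0 to 9 proliferin fragments per library limit the precision of every ratio.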

Other observations

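Between the 3 proliferin genes on the chromosome lie 11 other annotated rows, which were looked at after the values were seen. Of these, 8 were at 0 in all 6 libraries and the other 3 had fragments only with arachidonic acid. The share of all rows with this pattern was not worked out, and arachidonic acid replicates 1 and 3 were deeper than every vehicle library. Nothing is therefore read from this count. Gm48544, a long non-coding RNA, had 2, 14 and 28 fragments in arachidonic acid replicates 1, 2 and 3 and none in the vehicle libraries. Gm48527 had 1, 3 and 7, and Gm10811 had 0, 1 and 1. Gm7040, the proliferin-like gene beyond Prl2c5, had 6, 20 and 31. In a limma fit with no minimum level, over 28021 genes, the adjusted p was 0.15 for Gm48544, 0.11 for Gm48527, 0.67 for Gm10811 and 0.058 for Gm7040. None passed the threshold, and replicate 1 had the fewest fragments of the treated libraries for each, although it was the deepest.

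Prl2c2 and Prl2c3 were also compared with all tested genes one at a time. The 5 nearest to Prl2c2 were Syt8, Capg, Ly6a, S100a6 and Msln, and the 5 nearest to Prl2c3 were Capg, S100a6, Msln, Syt8 and Anxa3. These were likewise looked at after the values were seen. Syt8, a synaptotagmin, was at 32.0, 124 and 112 FPKM in the arachidonic acid libraries, against 32.5, 94.97 and 80.7 for Prl2c2, and Capg, an actin capping protein, was at 53.6, 153 and 137 FPKM.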
